A study of Homo sapiens with 8 samples.

Results

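The genes described here are 10 members of 2 families of small proteins that cross the cell membrane several times. They are the tetraspanins CD82, CD9, CD63, CD81, CD151, TSPAN1 and TSPAN8 and the L6 family members TM4SF1, TM4SF4 and TM4SF5. CD82 and TM4SF1 were chosen on the knockout comparison of these data: of the 472 genes called higher there and averaging 100 counts or more, CD82 ranked 1 and TM4SF1 ranked 2 by fold change. The other 8 are some of their relatives by family, also chosen with earlier results of these data known. These are 10 of the 16169 genes that the 2 deposited tables hold. All 10 are in the table of the SOX4 knockout and 7 are in the table of the STAT6 siRNA, where CD82, CD9 and TSPAN1 are not listed.

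The mRNA was sequenced from Hep3B, a human hepatocellular carcinoma line, in 8 libraries, 2 for each of 4 conditions. The knockout table holds untransfected Hep3B cells and Hep3B cells in which SOX4 had been targeted with CRISPR/Cas9, with the genotype SOX4-/-. The study states puromycin in the medium for its knockout cells and names none for Hep3B, so the drug, the choice of edited cells and the loss of SOX4 cannot be told apart in this comparison. The siRNA table holds Hep3B cells given a control (scramble) siRNA and Hep3B cells given an siRNA against STAT6. The study names its 2 knockout lines, #1 and #2, for the RNA-seq. The labels do not say which line each knockout library came from. Nothing in the labels says that libraries of a condition came from separate cultures. Every p-value below therefore measures the spread between these libraries, which may be technical. In the knockout, this spread may also hold a difference between the lines.

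Tetraspanins hold partner proteins, mostly integrins, immunoglobulin-domain proteins and proteases, together in patches of the membrane known as the tetraspanin web, and several of them are sorted into late endosomes and exosomes. CD82, also known as KAI1, is best known as a suppressor of metastasis, CD151 binds the laminin-binding integrins, and CD81 is a receptor through which hepatitis C virus enters hepatocytes. The L6 proteins have a similar topology but form a family of their own. TM4SF1 is the L6 tumour antigen, TM4SF4 is made in intestine and liver, and TM4SF5 has been studied as a driver of growth in liver tumours.

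Library totals ranged from 16266282 to 25353113 expected counts, and the 2 tables were deposited for separate comparisons. SOX4 itself stood at 732 and 249.5 CPM in Hep3B, against 260.4 and 272 CPM in cells labelled as its knockout, so its RNA level overlaps between the groups and does not check the label. Here and below, CPM means counts per 1000000 scaled by TMM over all 8 libraries. STAT6 stood at 29.3 and 12.4 CPM in Hep3B against 2.42 and 1.99 CPM in cells labelled SOX4 knockout, and 46.2 and 34.0 CPM with scramble siRNA against 11.4 and 6.50 with STAT6 siRNA. Hepatocyte markers were present in every library, with 10 of 10 listed genes measured.

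On the coordinates of the tables (hg38 per the submitters' processing notes), CD82 lies at chr11:44565591-44619766 and TM4SF1 at chr3:149369018-149377782. CD81 and CD151 share chromosome 11 with CD82, and TM4SF4 lies 96799 bases from TM4SF1. CD9, CD63 and TSPAN8 are on chromosome 12, TSPAN1 on chromosome 1 and TM4SF5 on chromosome 17. CD82 was close to absent in Hep3B and readily counted in the libraries labelled SOX4 knockout. It had 1 and 1 counts in the Hep3B libraries, which is 0.0520 and 0.0495 CPM. It had 670 and 496 counts in the knockout libraries, which is 22.2 and 24.6 CPM. The knockout libraries lie close together and far above both Hep3B libraries. The ratio of the summed, scaled counts was 456.5, with an exact 95% interval of 126 to 3774 that covers counting error only, and edgeR fitted a log2 fold change of 8.76 (standard error, SE, 0.64). CD82 is not listed in the siRNA table, whose transcripts all have a summed count of 10 or more.

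TM4SF1 showed the same picture at a higher level. It had 9 and 6 counts in Hep3B, which is 0.468 and 0.297 CPM, and 2739 and 4019 counts in the knockout libraries, which is 90.7 and 199.5 CPM. In the scramble libraries it had 0.369 and 0.385 CPM, and in the STAT6 siRNA libraries 0.422 and 0.358 CPM. Thus 6 of the 8 libraries hold TM4SF1 at 5 to 9 counts, and both knockout libraries stand apart from them. The count ratio of knockout to Hep3B was 353 (exact 95% interval 214 to 631), and the fitted log2 fold change was 8.60 (SE 0.64). The pair of knockout libraries differed by 2.20-fold for TM4SF1 and by 1.11-fold for CD82, and leaving out either one gave count ratios of 238 and 524.5 for TM4SF1.

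Both genes were chosen for this contrast, so the values describe the choice and carry no test. The bases just before the deposited transcript start of each are shown. These 2 genes, both close to absent in Hep3B and higher in the knockout, start in unlike sequence. The sequences are RefSeq's, from GRCh38.p14, written 5′ to 3′ along the gene's strand, and capitals mark CG dinucleotides. CD82 lies on the plus strand, with 178 bases from chr11:44565413-44565590, and TM4SF1 on the minus strand, with 118 bases from chr3:149377782-149377899.
CD82: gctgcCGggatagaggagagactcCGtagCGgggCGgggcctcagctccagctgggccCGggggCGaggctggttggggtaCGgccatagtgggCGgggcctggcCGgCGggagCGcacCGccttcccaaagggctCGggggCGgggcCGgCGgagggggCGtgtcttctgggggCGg
TM4SF1: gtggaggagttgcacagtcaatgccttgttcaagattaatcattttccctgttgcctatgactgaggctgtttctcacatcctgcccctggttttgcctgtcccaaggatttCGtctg
The CD82 stretch holds 18 CG dinucleotides and 77.0% G and C, and the TM4SF1 stretch holds 1 CG and 48.3% G and C. In windows of 300 bases around RefSeq's start, which were found for 8 of the 10 genes, the ratio of observed to expected CG was 0.792 for CD82, 0.795 for CD9 and 0.802 for CD63. It was 0.214 for TM4SF1, 0.304 for TM4SF4, 0.229 for TM4SF5, 0.296 for TSPAN1 and 0.0748 for TSPAN8, against a median of 0.579 over 35116 promoters. The genes that differed most in the knockout thus fall on both sides of that median, with CD82 and CD9 above it and TM4SF1, TSPAN1 and TSPAN8 below. CD81 and CD151 had no entry.

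A SOX motif, NNCAANG with A or T in place of each N, was searched on both strands of the same windows. TM4SF4 held 2 matches and TSPAN8 held 1, while CD82, TM4SF1, CD9, CD63, TSPAN1 and TM4SF5 held none, and 20.4% of all 35116 promoters held at least 1. The STAT6 motif, TTC and GAA with any 4 bases between them, was found once, in TM4SF1 at 140 bases before RefSeq's start, and 6.44% of all promoters held it. These are matches of letters in a short window and say nothing of binding.

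The other members that were close to absent in Hep3B were CD9, TSPAN1 and TSPAN8. CD9, which is sorted into exosomes and associates with CD81, had 0 and 0 counts in Hep3B and 47 and 44 in the knockout libraries, which is 1.56 and 2.19 CPM. Against a floor of 3 counts in each Hep3B library it was at least 11.9-fold higher, and the fitted log2 value, which depends on the prior count, is no bound. TSPAN1, a tetraspanin of secretory epithelia, had 1 and 0 counts in Hep3B and 21 and 12 in the knockout libraries, a count ratio of 25.8 with an exact 95% interval of 4.33 to 1051. Without Hep3B library 2 that ratio was 12.6, and without Hep3B library 1, where 0 counts are left, TSPAN1 was at least 4.41-fold higher. Both remained low in the knockout, with TSPAN1 under 1 CPM.

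TSPAN8, a tetraspanin of digestive epithelia that is also studied in tumour exosomes, had 0.312 and 0.198 CPM in Hep3B and 4.17 and 1.99 CPM in the knockout libraries. It had 1.85 and 0.962 CPM with scramble siRNA and 0.928 and 0.941 CPM with STAT6 siRNA. The 4 conditions do not overlap for TSPAN8, in the order Hep3B, STAT6 siRNA, scramble siRNA and knockout, although some gaps are narrow. The higher scramble library lies just under the lower knockout library. The higher STAT6 siRNA library, with 21 counts, lies just under the lower scramble library, with 20 counts, and counts this close cannot order the 2 conditions. The count ratio of knockout to Hep3B was 13.0 (exact 95% interval 6.89 to 27.6), and without knockout library 1 it was 7.83. TSPAN8 shares 2129 bases with LGR5 on the opposite strand, and whether counting used strand is not given in the sources used here. LGR5 had a log2 fold change of 0.82 (SE 0.61).

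CD151, CD81 and CD63 were abundant in every condition. CD151 had 88.7 and 66.1 CPM in Hep3B, 251 and 331 in the knockout libraries, 287 and 138 with scramble siRNA and 421 and 159 with STAT6 siRNA. Hep3B was the lowest condition, without overlap, and the other three overlapped one another. The log2 fold change of knockout against Hep3B was 1.97 (SE 0.38). CD151 shares 2476 bases with POLR2L, a subunit gene of the RNA polymerases on the opposite strand, and POLR2L had a log2 fold change of 1.82 (SE 0.35, adjusted p = 0.0330 by the quasi-likelihood test of edgeR after Benjamini-Hochberg adjustment). Without knockout library 1 that adjusted p was 0.139, and without knockout library 2 it was 0.240. POLR2L had 21.3 and 21.6 CPM in Hep3B, 61.9 and 83.6 in the knockout libraries and 115.9 and 56.1 with scramble siRNA, so it too was lowest in Hep3B.

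CD81 had 58.45 and 60.9 CPM in Hep3B against 115.5 and 164 CPM in the knockout libraries, with a log2 fold change of 1.29 (SE 0.35). With scramble siRNA it had 144 and 84.5 CPM, and with STAT6 siRNA 224 and 94.7. As for CD151, Hep3B was the lowest condition and the knockout overlapped both siRNA conditions. CD63, the late endosome tetraspanin and the most abundant of the 7 per length, had 209.6 and 247 CPM in Hep3B against 266 and 326 CPM in the knockout libraries, a log2 fold change of 0.43 (SE 0.36). It had 431 and 239 CPM with scramble siRNA and 618 and 263 CPM with STAT6 siRNA, so the knockout libraries lay within the range of the scramble libraries.

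Of the other L6 members, TM4SF5 differed and the value of TM4SF4 depended on which Hep3B library was read. TM4SF5 had 15.8 and 10.6 CPM in Hep3B against 80.1 and 46.1 CPM in the knockout libraries, a log2 fold change of 2.32 (SE 0.45). Its levels were 34.6 and 21.3 CPM with scramble siRNA and 55.35 and 24.05 CPM with STAT6 siRNA. The knockout libraries lay above both scramble libraries and overlapped the STAT6 siRNA libraries, although scaled by library totals alone they lay above all 6 others. TM4SF4 had 455 and 87.7 CPM in Hep3B, 475 and 408 in the knockout libraries, 447 and 372 with scramble siRNA and 454 and 356 with STAT6 siRNA. The libraries other than Hep3B library 2 hold it within a narrow band, and Hep3B library 2 is the low one. GENCODE places a processed pseudogene over 1336 bases of the span of TM4SF4 on the same strand. Whether it meets an exon of TM4SF4 or shares reads with it was not checked. The log2 fold change of TM4SF4 in the knockout was 0.75 (SE 0.69), and it was -0.0037 without Hep3B library 2 and 2.35 without Hep3B library 1.

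Across the members, 9 of 10 had both knockout libraries above both Hep3B libraries, TM4SF4 being the exception, and 0 had both below. Over the 14415 genes tested, 28.6% had both above and 29.7% both below. At an adjusted p under 0.05 (edgeR), 6 of the 10 were called, all higher (CD82, CD9, CD151, TSPAN8, TM4SF1 and TM4SF5), where 5.89% of all genes were called, 4.5% higher and 1.39% lower. The choice of members used this contrast, so nothing is read from these counts. The number called also moved with the libraries in the fit. It was lowest when either knockout library was left out, as was the number called over all genes. With each library left out in turn, the log2 fold change ranged from 8.68 to 8.80 for CD82 and from 7.93 to 9.05 for TM4SF1. For TM4SF5 it ranged from 1.85 to 2.66, for CD151 from 1.75 to 2.15 and for TSPAN8 from 2.98 to 4.06. The choice of CD82 and TM4SF1 used these same libraries, so their ranges are a description.

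The siRNA table gives a second set of Hep3B libraries. Of the 10 members, 5 (CD82, CD9, TSPAN1, TSPAN8 and TM4SF1) had both knockout libraries above all 6 other libraries, counting an unlisted gene as 0 there, and 13.9% of 14632 genes did so. The count also uses the knockout and Hep3B values by which CD82 and TM4SF1 were chosen, and CD82, CD9 and TSPAN1 enter it as 0, so nothing is read from it. For TSPAN1 it rests on the 0, since an unlisted transcript can hold up to 9 counts, which would lie near the level of TSPAN1 in the knockout. Of the 7 members listed in both tables, 4 (CD81, CD151, TSPAN8 and TM4SF5) had both scramble libraries above both untransfected Hep3B libraries, where 27.5% of 14313 genes did. The mean of the scramble libraries was 2.75 times that of Hep3B for CD151, 2.12 times for TM4SF5, 1.91 times for CD81 and 0.985 times for TM4SF1. For the same genes the mean of the knockout libraries was 1.37, 2.26, 1.22 and 385 times that of the scramble libraries. CD151 and CD81 therefore sat lower in untransfected Hep3B than in every other library, whereas TM4SF1 was low in all libraries but those of the knockout. Transfection and the table differ together between Hep3B and scramble siRNA and cannot be told apart.

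Under STAT6 siRNA none of the 6 members tested passed the threshold. STAT6 itself had a log2 fold change of -2.22 (SE 0.72) against scramble siRNA, with an unadjusted p of 0.00834 and an adjusted p of 1.0 by edgeR. No gene was called among 13554 (0%) by edgeR, with 14 genes at an unadjusted p under 0.05, and DESeq2 likewise called 0, with 16 genes. The log2 fold change was 0.34 (SE 0.60) for CD63, 0.43 (0.61) for CD81 and 0.39 (0.63) for CD151. It was 0.45 (0.69) for TM4SF5, -0.06 (0.54) for TM4SF4 and -0.61 (0.80) for TSPAN8, and all 6 had an adjusted p of 1.0. The standard errors leave room for changes of either sign, so an effect of STAT6 siRNA on these genes was not detectable in this fit. With the library number as a block, edgeR called 62 of the 13554 genes, 27 higher and 35 lower. Then 1495 genes had an unadjusted p under 0.05, so the 0 calls above hold for the fit without the block. With the block the standard errors of the members were smaller, from 0.21 for TM4SF5 to 0.46 for TSPAN8, and again none of the 6 passed. TM4SF1 was listed with 6 and 8 counts in scramble and 5 and 8 in STAT6 siRNA libraries and fell under the filter on low counts.

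The libraries numbered 1 lay above those numbered 2 in both siRNA conditions for CD63, CD81, CD151 and TM4SF5. For CD151 library 1 had 2.08 times the CPM of library 2 with scramble siRNA and 2.65 times with STAT6 siRNA. Within a number, the log2 difference of STAT6 siRNA from scramble was 0.47 and 0.19 for CD151, 0.56 and 0.16 for CD81, 0.60 and 0.17 for TM4SF5 and 0.44 and 0.13 for CD63. For TSPAN8 it was -0.98 and -0.03, and for TM4SF4 -0.06 and -0.07. Of the 7 listed members, 0 had both STAT6 siRNA libraries above both scramble libraries, where 3.14% of all genes did. TSPAN8 alone had both below, where 4.51% of all genes did, with 0.941 against 0.962 CPM in the closest libraries. Whether the difference in the knockout and the difference under STAT6 siRNA are unequal was not tested for any member.

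Levels were compared between genes only per transcript length, as CPM per kb of transcript. In each of the 4 conditions the 5 most abundant members kept the order CD63, TM4SF4, CD151, CD81 and TM4SF5 by their means. In Hep3B these were 224, 129, 51.2, 41.0 and 18.6 CPM per kb, and in the knockout 294, 210.2, 191, 96.95 and 89.2 CPM per kb. The libraries of neighbours in this order often overlap, as TM4SF4 and CD151 do in the knockout, with 194 to 226 and 165 to 217 CPM per kb. Behind them TM4SF1 went from 0.216 CPM per kb in Hep3B to 81.9 in the knockout, next to TM4SF5 and CD81. CD82 went from 0.0355 to 10.4 CPM per kb and so stayed well under CD63, CD151 and CD81.

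The 7 tetraspanin members together had 306 and 328 CPM per kb in Hep3B, 524 and 669 in the knockout, 712.5 and 384.5 with scramble siRNA and 1039 and 430.0 with STAT6 siRNA. CD82 held 1.87% and 1.65% of this sum in the knockout libraries. The share of CD151 was 19.2% and 13.3% in Hep3B, 31.5% and 32.5% in the knockout and between 23.6% and 26.7% in the 4 siRNA libraries, and that of CD63 was 67.6% and 73.8% in Hep3B and 50.3% and 48.4% in the knockout. These shares are ratios within a library and do not depend on scaling between libraries. In the L6 sum, TM4SF1 held 13.1% and 30.3% in the knockout libraries and at most 0.295% in the other 6.

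**Figure D1:**
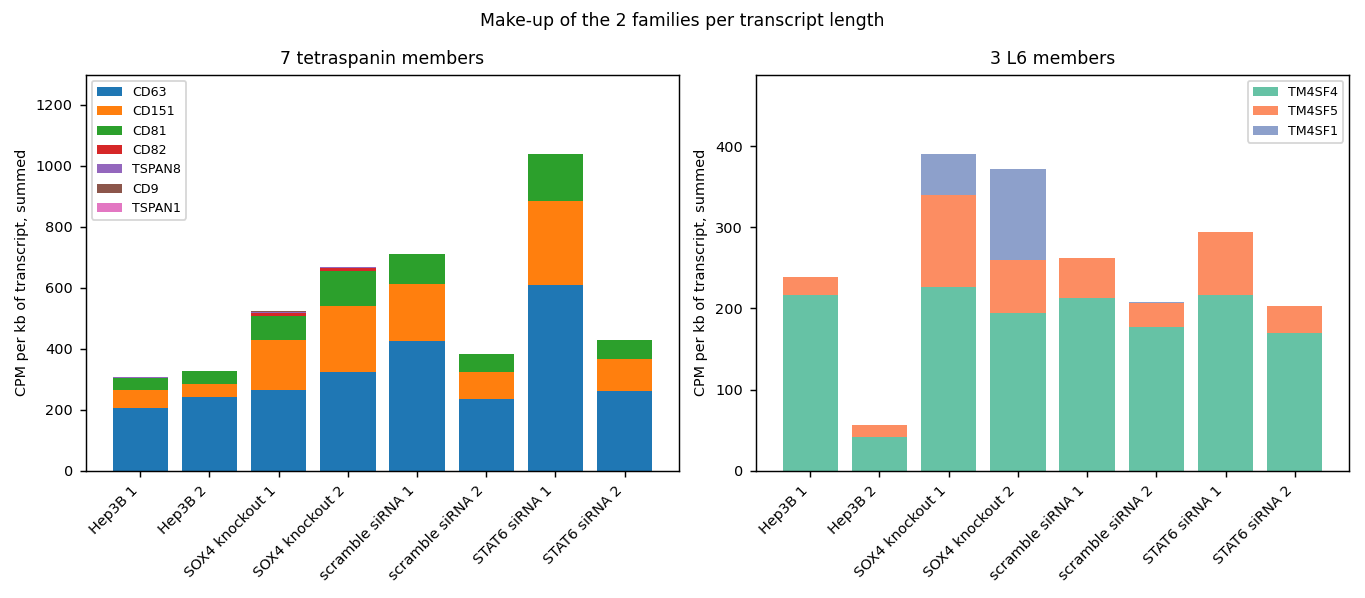
Stacked CPM per kb of transcript in each of the 8 libraries, for the 7 tetraspanins (left) and the 3 L6 family genes (right). CD63, CD151 and CD81 make up nearly all of the tetraspanin bars, CD82 is a thin band of 1.87% and 1.65% in the knockout libraries, and TM4SF1 is visible in the L6 bars of the knockout libraries only, at 13.1% and 30.3%.

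The tables list RefSeq transcripts, which allows a look at isoforms. CD82 counts in the knockout came from NM_002231, with 665 and 486 expected counts, while NM_001024844 had 4.63 and 10.4. TM4SF1, TM4SF4, TM4SF5, CD9, TSPAN1 and TSPAN8 are each listed with a single transcript in the knockout table. CD151 is listed as NM_004357, NM_139029, NM_139030 and NM_001039490. The share of NM_139030 among CD151 counts was 60.2% and 36.9% in Hep3B and 30.2% and 26.9% in the knockout, and that of NM_004357 was 34.5% and 51.3% in Hep3B and 53.45% and 55.1% in the knockout. For CD151 the Hep3B and knockout libraries do not overlap in either share, but the Hep3B libraries differ from each other by more than Hep3B library 2 does from the knockout. CD81 kept NM_004356 as its main transcript, with 87.3% and 83.3% in Hep3B and 80.4% and 82.8% in the knockout. Such shares are estimates, since the transcripts of a gene share most of their sequence.

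Of the genes near CD82, 2 of 3 rose in the knockout, where 4.5% of all genes tested were called higher. Within 500 kb of CD82 the knockout table lists 3 genes. TP53I11, named for its induction by p53, had 8 and 10 counts in Hep3B and 299 and 264 in the knockout, a log2 fold change of 4.70 (SE 0.58, adjusted p = 0.0136 by edgeR). EXT2, which makes heparan sulfate chains, had 467 and 692 against 2535 and 2180 counts, a log2 fold change of 1.78 (0.36, adjusted p = 0.0380). ACCS had 17 and 6 against 126 and 50 counts, with a log2 fold change of 2.55 (0.77) and an adjusted p of 0.0913 by edgeR. TP53I11 lies 312582 bases and EXT2 320160 bases from CD82. Without knockout library 1 the adjusted p was 0.167 for EXT2, and without knockout library 2 it was 0.257 for EXT2 and 0.0968 for TP53I11.

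Around TM4SF1 the table lists 9 genes within the same distance, of which 8 were tested, TM4SF4 among them, and 0 passed. The largest of these log2 fold changes was 1.63 (SE 0.52, adjusted p = 0.103 by edgeR) for WWTR1, which encodes the transcriptional co-activator TAZ. HLTF had 1.00 (0.43, adjusted p = 0.187). The nearest gene, TM4SF1-AS1, overlaps TM4SF1 by 88 bases on the opposite strand and had 0 and 0 counts in Hep3B and 5 and 7 in the knockout, under the filter on low counts. CP, which encodes ceruloplasmin, had 5347 and 266 counts in Hep3B and 5985 and 5735 in the knockout. CP and TM4SF4 thus both had their low value in Hep3B library 2.

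The genes whose pattern over the 8 libraries was most like that of CD82, over 10993 genes averaging 100 counts or more, were EMP3, TM4SF1, PTPRS, CHST15 and EMP2, with Pearson's r of 0.996, 0.994, 0.992, 0.990 and 0.989 on the log2 CPM scale. For TM4SF1 they were EMP3, CD82, AXL, TNNT1 and SPNS2, with r of 0.996, 0.994, 0.988, 0.988 and 0.986. PTPRS is a receptor tyrosine phosphatase, CHST15 a chondroitin sulfotransferase, AXL a receptor tyrosine kinase, TNNT1 the slow skeletal troponin T and SPNS2 a transporter of sphingosine-1-phosphate. EMP2 and EMP3 are also small proteins that cross the membrane several times, of the PMP22 family. EMP3 had 25 and 21 counts in Hep3B, 477 and 462 in the knockout and 12 to 19 in the siRNA libraries. These r values describe one contrast, 2 libraries against 6, and 68 and 65 genes reached an r of 0.95 with CD82 and TM4SF1. CD82, CD9 and TSPAN1 are not listed for the siRNA libraries and entered as 0 there. Their r values therefore rest in part on values that were not measured. Among the members, r with TM4SF1 was 0.999 for CD9 and 0.984 for TSPAN1, 0.684 for TSPAN8, 0.645 for TM4SF5, 0.443 for CD151, 0.347 for CD81, 0.286 for TM4SF4 and -0.0449 for CD63.

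Lists of relatives and partners, chosen with earlier results of these data known, were counted without the 10 members and with no test of a list. Over all genes tested, 4.5% were called higher, 1.39% lower and 50.4% had a log2 fold change above 0. Of 17 other tetraspanins tested in the knockout comparison, 2 rose and 0 fell, and 15 had a log2 fold change above 0, with a median of 0.71 beside 0.008 over all genes tested. UPK1B, a tetraspanin of the urothelial plaque, had 1 and 1 counts in Hep3B and 206 and 208 in the knockout, a count ratio of 162 (exact 95% interval 44.6 to 1343) with an adjusted p of 0.0104 by edgeR. TSPAN4, a tetraspanin of migrating cells, had 21.9 and 7.77 CPM in Hep3B against 63.3 and 74.5 CPM in the knockout, a log2 fold change of 2.27 (SE 0.53, adjusted p = 0.0494), and 3.16 without Hep3B library 1. No L6 family member other than the 3 described passed the filter.

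Of 18 integrin subunits tested, 3 rose and 0 fell, with a median log2 fold change of 1.23. ITGA3, the laminin-binding alpha subunit that pairs with CD151, had 0.468 and 2.43 CPM in Hep3B against 64.0 and 80.4 CPM in the knockout, a log2 fold change of 5.70 (SE 0.74, adjusted p = 0.0148 by edgeR). Without Hep3B library 2 the value for ITGA3 was 7.29, and without Hep3B library 1 it was 4.91. ITGB3, a vitronectin receptor subunit, had a log2 fold change of 3.84 (0.62, adjusted p = 0.0223). ITGB6, an epithelial subunit, had 0 and 0 counts in Hep3B and 48 and 17 in the knockout, at least 8.48-fold higher (adjusted p = 0.0363). ITGA6 and ITGB1, further partners of CD151, had log2 fold changes of 1.10 (adjusted p = 0.0895) and 0.61 (adjusted p = 0.447) by edgeR.

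Of 21 tested partners of the tetraspanin web, 3 rose and 1 fell, with a median of 0.89. IGSF8, an immunoglobulin-domain partner of CD81, CD9 and CD82, had 21.4 and 23.3 CPM in Hep3B against 61.9 and 70.3 CPM in the knockout, a log2 fold change of 1.63 (SE 0.34, adjusted p = 0.0399 by edgeR). CD44, the hyaluronan receptor, had 10 and 0 counts against 253 and 292, a log2 fold change of 5.49 (1.09, adjusted p = 0.0355). For CD44 it was 4.48 without Hep3B library 2, and without Hep3B library 1, where 0 counts are left, the fitted value is no bound. CD47, which signals to macrophages, had a log2 fold change of 2.32 (0.44, adjusted p = 0.0319). SLC3A2, the heavy chain of amino acid transporters, fell by 3.07 on the log2 scale (0.46, adjusted p = 0.0192), from 978 and 1453 to 127 and 149.6 CPM.

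Of 9 other entry factors of hepatitis C virus, 0 passed by edgeR, with 2 at an unadjusted p under 0.05, and DESeq2 called the same 2, CLDN1 and EGFR, higher. CLDN1 had a log2 fold change of 1.49 (SE 0.54, adjusted p = 0.136 by edgeR), and it alone was called without Hep3B library 1. The median of the list was 0.32, but 1.07 without Hep3B library 1 and -0.27 without Hep3B library 2, with 6 of 10 genes then under 0. Of 18 genes of exosome and late endosome machinery 2 rose, with a median of 0.30. These were SDC1, a heparan sulfate proteoglycan, with a log2 fold change of 1.72 (0.36, adjusted p = 0.0400), and RAB27B, a GTPase of vesicle secretion, with 4.23 (0.74, adjusted p = 0.0258), 3.31 without knockout library 1 and 5.01 without Hep3B library 1. Over these 5 lists and without repeats, 11 of 82 genes passed, 10 higher and 1 lower. With each library left out in turn, that count was highest without Hep3B library 1 and lowest without either knockout library. The number called over all genes moved in the same way. In the comparison of STAT6 siRNA 0 of 77 listed genes passed by edgeR or DESeq2, with 0 at an unadjusted p under 0.05 by either. With the library number as a block 0 passed by edgeR, with 9 at an unadjusted p under 0.05.

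Markers of cell types moved in the same libraries. Of 10 hepatocyte markers, 10 were measured, 3 rose in the knockout (APOA1, TTR and FGB) and 0 fell. Over all genes tested 4.5% were called higher and 1.39% lower. Of the 10 markers, 9 had a log2 fold change above 0 and 1 below. None of the 10 was called without knockout library 1 or without knockout library 2, and 1 was called in the fit of all 8 libraries. Without knockout library 1 the log2 fold changes of APOA1, TTR and FGB were 1.61, 2.34 and 1.57, against 2.40, 3.14 and 2.53 with it. The markers had a summed level of 11580 to 15440 CPM in Hep3B, 29060 to 46650 in the knockout, 17910 to 19030 with scramble siRNA and 20260 to 23310 with STAT6 siRNA. In Hep3B and the knockout the largest part was ALB, at 6834 and 6405 against 24860 and 12320 CPM. ALB did not pass (adjusted p = 0.220 by edgeR). Of 6 fibroblast markers 3 were tested and 2 rose, LUM with a log2 fold change of 6.67 (SE 0.50, adjusted p = 0.00384 by edgeR) and PDGFRB with 2.53 (0.59, adjusted p = 0.0494). Their summed level was 4.06 to 6.98 CPM in Hep3B and 70.0 to 88.5 in the knockout, most of it LUM, while COL1A2, COL3A1 and DCN are not listed in the knockout table. It was 7.79 to 9.35 CPM with scramble siRNA and 10.2 to 19.2 CPM with STAT6 siRNA. LUM was called whichever library was left out, and PDGFRB, at 3.17 without Hep3B library 1, was not called without either knockout library, with an adjusted p of up to 0.288 by edgeR. Of 6 endothelial markers, cells in which TM4SF1 is also known to be abundant, only PECAM1 is listed, at no more than 0.695 CPM. Of the leukocyte markers, CD3E and NKG7 are not listed and PTPRC had at most 0.199 CPM, while the summed level, nearly all from LYZ and CD68, was 32.2 to 82.0 CPM in Hep3B, 163 to 394 in the knockout, 67.8 to 89.0 with scramble siRNA and 67.9 to 106.7 with STAT6 siRNA. By edgeR neither PECAM1 nor the 2 leukocyte markers tested, LYZ and CD68, passed, although both of the latter had an unadjusted p under 0.05. DESeq2 called both LYZ and CD68 higher, as did edgeR without Hep3B library 1, and without Hep3B library 2 it called LYZ. In bulk RNA, more cells holding a transcript and more of it per cell cannot be told apart. The part of these markers in the members' differences was not tested.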

How the data were processed

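RNA-seq of Hep3B cells was analysed in 8 libraries, grouped by their labels. The authors deposited expected counts, estimated per RefSeq transcript and not normalized, from stranded mRNA libraries. The submitters' processing notes name Partek, STAR and hg38 without versions or roles. No transcript in a table has a sum under 10 counts. Values were added up per gene and then rounded. The design had assumed counts and the same test was kept. An estimate of this kind divides reads between near-identical transcripts.

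The tables were fitted separately with edgeR 4.0.16 in R 4.3.3, using filterByExpr, TMM, estimateDisp, glmQLFit and glmQLFTest, with Benjamini-Hochberg adjustment over all genes tested and a threshold of 0.05. For levels, TMM factors were set over all 8 libraries, on the 14826 genes with a place in both tables. Differences between single libraries used a prior count of 2. A count of 0 was given a limit of 3 counts, the same in every library. Exact intervals (95%) and this limit cover counting error only. Lengths were those of GENCODE release 29 transcripts, and promoters were RefSeq's. Scripts were tested on simulated counts. The result of 1 marker gene is not reported here.

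The members and the gene lists were chosen with earlier results of these data known. Named are the 10 members, SOX4 and STAT6, in each list up to 3 called genes in each direction, genes within 500 kb of CD82 and TM4SF1 and the 5 most like each in pattern. The values of POLR2L, LGR5, ITGA6, ITGB1 and CLDN1 had been seen before these were named. The other settings were scaling by median of ratios or by upper quartile, DESeq2 1.42.0, dropping the filter, requiring 10 counts in each library, the library number as a replicate block, all 8 libraries in 1 fit and leaving out each library. Joint scaling by library totals and by median of ratios was added after the data were seen.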

Additional observations from a re-analysis of the deposited data

How the results depend on the processing

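In the knockout comparison 849 genes and 11 listed genes were called. DESeq2 called 2160 and 18, and a filter of at least 10 counts in every library left 518 and 6. A fit of all 8 libraries called 572 and 8. Leaving out each library gave 21 to 2298 genes and 0 to 18 listed genes. Of the called genes, 76.3% were higher, and 63.9% by DESeq2. Of the 10 members, 6 were called, 7 by DESeq2, 4 in a fit of all 8 libraries, and 2 of the 5 kept by the filter of 10 counts. The cause was not tested, except that this filter leaves out members that are near 0 in Hep3B. In 103 of 104 alternative values the members stayed above 0, the exception being TM4SF4 at -0.0037 without Hep3B library 2. Over all genes tested, 50.4% lay above 0 in the main fit. The members were chosen with this contrast known and these fits reuse its libraries, so nothing is read from that count.

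In the STAT6 siRNA comparison 0 members were called in any alternative. The library number as a replicate block called 62 genes, 27 higher and 35 lower, and 0 listed genes, with 9 at an unadjusted p under 0.05. The lowest adjusted p of a member was then 0.472, for TM4SF5 (log2 fold change 0.39, standard error 0.21). Deviations of same-numbered libraries correlated at 0.873 in this table and -0.085 in the knockout table, with 2 pairs each, and the labels do not say what a number shares. The block called 982 genes, 12 listed genes and 6 members in the knockout table. TM4SF4 changed sign with median-of-ratios factors (0.0391) and DESeq2 (0.0391). Leaving out each library gave ranges of -0.20 to 0.14 for TM4SF4, -0.35 to 0.90 for CD63, -0.27 to 0.93 for CD81, -0.42 to 1.08 for CD151 and -0.22 to 0.91 for TM4SF5. Where 1 library was left in a group, its spread was taken from the other group.

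Under joint scaling by library totals or median of ratios, 6 and 5 members had both knockout libraries above the other 6, TM4SF5 being the one added by totals. By totals the knockout libraries also lay above both scramble libraries for CD81, CD151 and TM4SF4. Depth limits CD9, TSPAN1 and TSPAN8, which rest on at most 47, 21 and 126 counts in a library.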
